A study of Mus musculus with 16 samples.

Results

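The genes described here are 33 imprinted genes of the mouse, taken as a list that was chosen with earlier results of these data known. They are described in cells sorted from retinal organoids for GFP under the Nrl promoter. Of the 33 genes, 28 were found by symbol among the 32166 genes of the deposited gene table, and 26 passed the filter for testing. The filter asked for 1 CPM, a count scaled to the library total, in 2 or more libraries. The 5 noncoding members H19, Meg3, Rian, Mirg and Kcnq1ot1 were not analysed here. The 2 members below the filter were Asb4, which reached 1 CPM in 1 library, and Phlda2, which did so in 0 libraries. By the allele that textbooks name as active, 19 of the 28 are paternal, 7 are maternal and 2 (Grb10 and Gnas) depend on the tissue. By position, 12 of the 28 lie on chromosome 7.

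All 16 libraries came from cells of Nrlp-GFP mice, in which the promoter of Nrl, the transcription factor that specifies rods, drives green fluorescent protein, and GFP-positive cells were collected by flow sorting. iPSC-derived cells gave 7 libraries (2 at day 18, 1 at day 21, 2 at day 25, 1 at day 28 and 1 at day 35 after the start of differentiation). ESC-derived cells gave 9 libraries (3 at day 18, 3 at day 21, 1 at day 25, 1 at day 28 and 1 at day 35). The iPSC clones were made from mouse embryonic fibroblasts with doxycycline-inducible lentiviral vectors for Oct3/4, Sox2, Klf4 and c-Myc, while the ESC clones came from blastocysts. Both were kept on fibroblast feeders with LIF, were used at passages 15 to 25, spent days 0 to 10 of differentiation in low oxygen and had retinoic acid listed in the medium until day 26, when the whole medium was replaced. Libraries of days 28 and 35 were therefore collected after a change of medium, and day and medium cannot be told apart there. Neither the clone behind each library nor the culture behind each replicate is labelled. The p-values thus speak of the spread between libraries, part of which may be technical.

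Imprinted genes are transcribed mainly or only from the copy inherited from 1 parent. The choice is set in the germ line by DNA methylation at imprinting control regions, which often switch a whole cluster of neighbouring genes, and it is kept in the early embryo by factors such as the zinc finger protein ZFP57. Many of these genes act on growth, on the insulin-like growth factor pathway or in neurons, and their dosage is watched in stem cell lines because imprints can be lost in culture. The tables hold no allele of origin, so levels are given here and the active copy was not measured.

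Libraries differed in their makeup in ways that touch every member. The total of estimated counts rebuilt for each library ran between 3818029 and 21785432. Replicate 1 of iPSC at day 18 and replicate 1 of ESC at day 18 stood apart with Nrl at 15.99 and 17.74 CPM, against a lowest value of 135.8 CPM elsewhere, and they are called the low-Nrl pair below. Their 13 rod markers summed to 255.3 CPM in iPSC and 251.9 CPM in ESC and their 12 progenitor markers to 2799 CPM in iPSC and 2777 CPM in ESC, so their markers go against the name photoreceptors. These low-Nrl libraries correlated at 0.992 across genes, and across the 26 tested members they differed by a median of 0.145 on the log2 scale. The 3 Y-linked genes Ddx3y, Eif2s3y and Uty averaged 42.2 CPM in iPSC replicate 2 of day 18 and 11.5 CPM in iPSC replicate 1 of day 25, where the other iPSC libraries lay at or below 1.48 CPM, and 0.927 CPM in ESC replicate 1 of day 18, where the other ESC libraries lay at or above 25.6 CPM. In most libraries source and Y-linked RNA thus went together, so they cannot be fully told apart in the comparison of sources. At days 28 and 35 the split was complete, with 0.643 and 1.45 CPM in iPSC against 53.3 and 73.8 CPM in ESC. Ttr, a gene of pigment epithelium and choroid plexus, reached 2072 CPM in ESC at day 35 and 1554 CPM in replicate 2 of ESC at day 18. The 13 rod markers summed to between 5840 and 15798 CPM at days 28 and 35, against between 251.9 and 4579 CPM at day 18. Over the same days the 12 cell cycle markers summed to between 152.3 and 401.1 CPM, against between 323.8 and 1841 CPM at day 18. These are bulk samples, in which fewer cells of a type and less RNA per cell cannot be told apart.

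Levels were compared between members in TPM, a transcript abundance scaled by length and by library total, for the 22 members whose transcripts were all in the transcript table. Gnas, which encodes the stimulatory G protein subunit of receptor signalling, stood highest, with a mean of 783 TPM and a range over libraries of 474 to 1083 TPM. Nnat (neuronatin, a small membrane protein of developing neurons) followed at 340 TPM, but its libraries ran between 16.3 and 1060 TPM and so overlapped those of Gnas. Next came Plagl1 (a zinc finger transcription factor that restrains proliferation) at 143 TPM, Cdkn1c (the cyclin-dependent kinase inhibitor p57) at 139 TPM and Snrpn (a splicing protein) at 122 TPM. The ranges of these 3 genes overlapped, so their order was not separated beyond the spread of the libraries. Igf2, the growth factor ligand of the Igf2-H19 cluster, averaged 80.2 TPM, and Peg3, a zinc finger protein, 67.2 TPM. At the low end were Zim1 at 2.34 TPM, Magel2 at 2.05 TPM and Phlda2 at 0.344 TPM.

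Members differed in how steady they were. In CPM, the highest library exceeded the lowest by 1.58-fold for Copg2 (a subunit of a vesicle coat), 1.85-fold for Sgce (a sarcoglycan of the membrane), 2.13-fold for Ube3a (a ubiquitin ligase) and 2.17-fold for Gnas. The widest ranges were those of Nap1l5 at 190.5-fold, Magel2 at 112-fold, Nnat at 61.3-fold, Dlk1 at 50.9-fold and Plagl1 at 30.1-fold. Single libraries set part of these widths. Without the iPSC library of day 35, at 0.124 CPM of Magel2 and 8.40 CPM of Nnat, the range was 15.8-fold for Magel2 and 27.6-fold for Nnat, and without ESC replicate 3 of day 18 it was 32.7-fold for Dlk1. Nap1l5, a nucleosome assembly protein relative inside an intron of Herc3, had a range of 27.6-fold without the ESC library of day 35. It stood at 62.5 CPM in ESC at day 35 and between 0.328 and 9.05 CPM in the other 15 libraries.

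**Figure D1:**
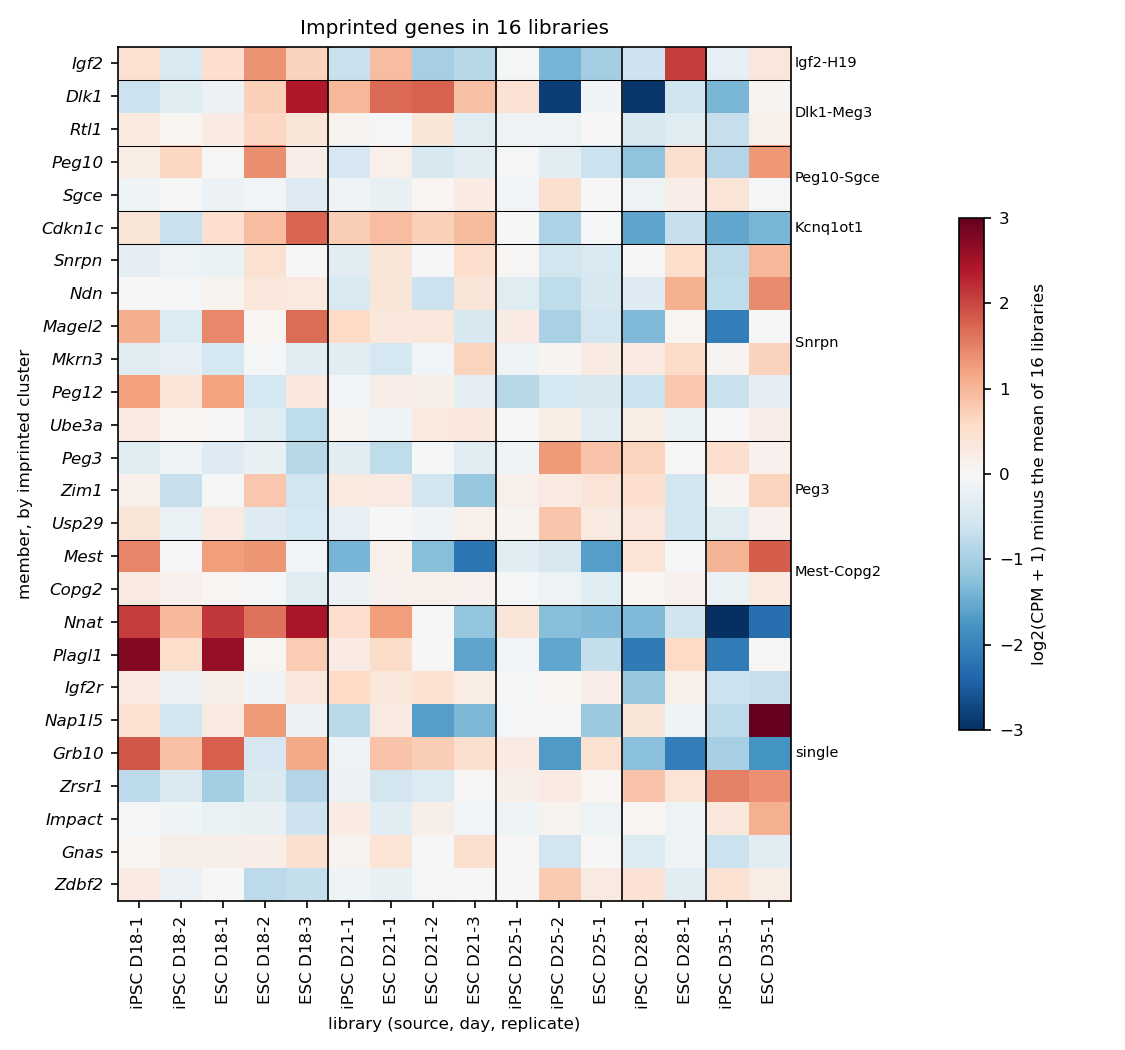
Each row is 1 of the 26 tested members, grouped by imprinted cluster, and each column is 1 of the 16 libraries, ordered by day with iPSC left of ESC within a day. Colour gives log2(CPM + 1) minus the gene's mean over the 16 libraries, and values beyond 3 in either direction take the end colour. Nnat is above its mean in each library of day 18 and Grb10 in all but ESC replicate 2, and both are below it at days 28 and 35, Zrsr1 runs the other way, and Nap1l5 is high in ESC at day 35.

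Between iPSC- and ESC-derived cells, no member passed the test. In limma with day in the model and Benjamini-Hochberg adjustment over 15202 genes, 0 of 26 members and 0 of all genes (0%) were called, and the smallest adjusted p among the members was 0.753. At an unadjusted p under 0.05 there were 4 of 26 members against 840 of 15202 genes (5.53%), and all 4 were lower in iPSC. The median member difference was -0.18 on the log2(CPM + 1) scale, iPSC minus ESC, against 0.02 over all genes tested. With 1 library left out, the member median ran from -0.24 (without iPSC replicate 1 of day 18) to -0.07 (without either library of day 28). The members had 11 positive and 15 negative differences. The ranges of iPSC and ESC libraries overlapped for each of the 26 members, as they did for all but 2 of 15202 genes (0.0132% did not overlap). The intervals of the members had a median half-width of 0.48 (log2), with no adjustment for the number of genes tested. Larger differences, such as -1.31 for Dlk1, were also not called, so differences well above this half-width could go undetected.

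The 4 members with an unadjusted p under 0.05 came from the Dlk1-Meg3, Kcnq1ot1 and Snrpn clusters. Dlk1, a transmembrane ligand related to Delta that restrains differentiation, had a lowest, median and highest value of 3.42, 20.2 and 65.5 CPM in iPSC, against 20.8, 53.7 and 174 CPM in ESC. Its difference was -1.31 (95% interval -2.31 to -0.30, limma adjusted p = 0.753). Cdkn1c of the Kcnq1ot1 cluster, which is expressed from the maternal copy, had 18.0, 34.7 and 93.8 CPM in iPSC, against 20.9, 92.2 and 191 CPM in ESC, a difference of -0.66 (interval -1.18 to -0.13, limma adjusted p = 0.753). For both genes the sources overlapped, and 4 of the 7 iPSC libraries of Dlk1 lay below each ESC library.

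In the Snrpn cluster, 5 of 6 members had a negative difference and none was called. Ndn (necdin, a protein of postmitotic neurons) had 31.2, 40.8 and 53.1 CPM in iPSC and 34.1, 68.0 and 146.5 CPM in ESC, a difference of -0.72 (interval -1.25 to -0.19, limma adjusted p = 0.753). Snrpn had 51.0, 72.7 and 91.2 CPM in iPSC and 64.3, 115 and 178 CPM in ESC, a difference of -0.51 (interval -0.95 to -0.06, limma adjusted p = 0.753). Snrpn shares 589 exonic bases with Gm38393 and 216 with Snurf on the same strand, so reads could be split between these genes. Magel2 (a regulator of ubiquitin ligases, -0.57), Mkrn3 (a ring finger protein, -0.25) and Peg12 (-0.15) had intervals that included 0. The maternally expressed member of the cluster, Ube3a, was the exception at 0.27 (interval -0.05 to 0.59).

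The remaining clusters held smaller or less certain differences between sources. Igf2 had 34.8, 68.5 and 128.5 CPM in iPSC, against 44.8, 133 and 397.5 CPM in ESC, a difference of -0.76 with an interval of -1.57 to 0.06. Rtl1, a retrotransposon-derived gene of the Dlk1-Meg3 cluster, reached at most 1.09 CPM in iPSC and at most 1.64 CPM in ESC. The 3 members of the Peg3 cluster had differences of 0.18 (Peg3), 0.14 (Usp29, a deubiquitinase relative) and 0.09 (Zim1, a zinc finger gene), each with an interval that included 0. In the pair of Mest, a hydrolase-like enzyme, and Copg2 the differences were 0.09 and 0.02. Peg10, another retrotransposon-derived gene, stood at -0.55 (interval -1.23 to 0.13) and its neighbour Sgce at 0.07. Among members outside clusters, Zdbf2, a zinc finger gene, had the largest positive difference at 0.33 (interval -0.03 to 0.68). The largest negative ones there were -0.54 for Nap1l5 (interval -1.77 to 0.69) and -0.41 for Plagl1 (interval -1.625 to 0.81).

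**Figure D2:**
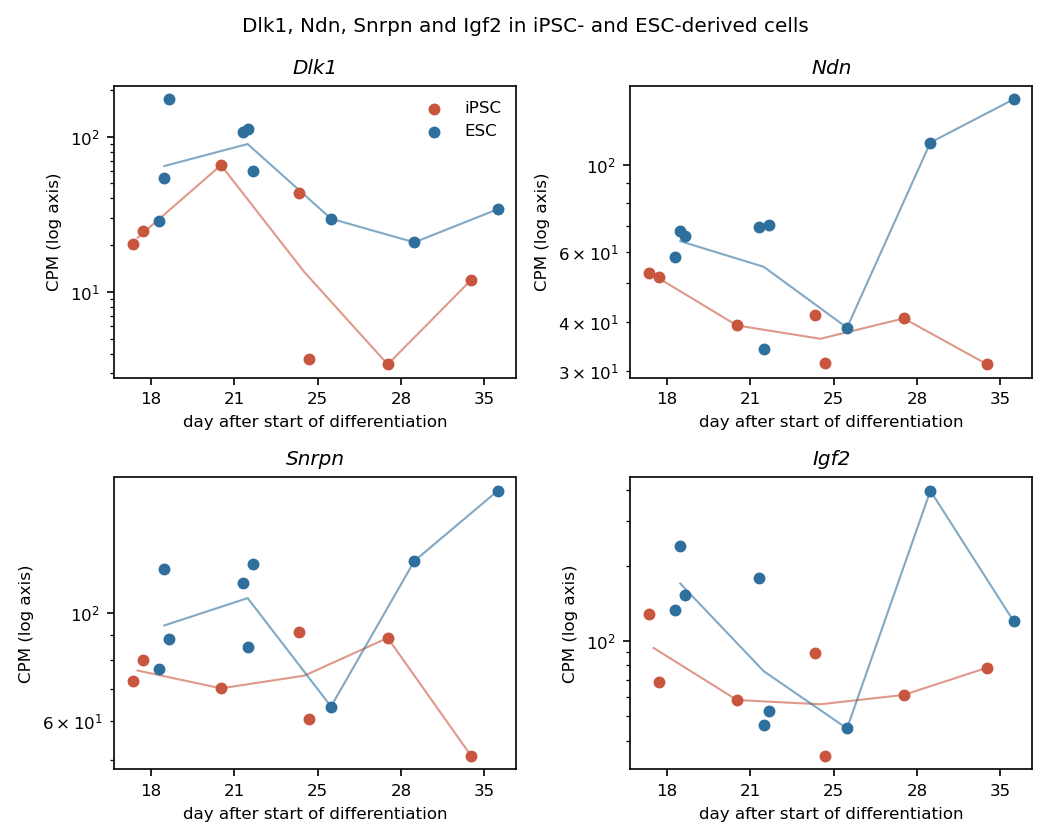
CPM on a log axis of Dlk1, Ndn, Snrpn and Igf2 in each library by day (days evenly spaced), with iPSC (red) left of ESC (blue) and lines through the group means of log2(CPM + 1). At days 28 and 35 both iPSC libraries lie below both ESC libraries for all 4 genes. At day 18 this also holds for Dlk1, Ndn and Igf2, and the sources overlap for Snrpn.

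The number of members whose sources were apart differed by day. At day 18 the ranges of iPSC and ESC did not overlap for 7 of 26 members, against 21.1% of all genes tested. Of these, 3 were higher in iPSC (Ube3a, Copg2 and Impact; all genes 15.7%) and 4 were lower (Igf2, Dlk1, Cdkn1c and Ndn; all genes 5.39%). At days 21 and 25 the ranges did not overlap for 1 member, Grb10, which was lower in iPSC (all genes 1.78%, lower 1.05%). At days 28 and 35 the ranges of iPSC and ESC did not overlap for 16 of 26 members, against 49.6% of all genes tested, with 2 libraries on each side. Of these 16, 13 were lower in iPSC (all genes 23.3%) and 3 were higher (Peg3, Grb10 and Zdbf2; all genes 26.3%). The groups held 2 to 4 libraries, no test was run within days, and the counts were made after the values had been seen. Ndn had 40.8 and 31.2 CPM in iPSC at days 28 and 35, against 114 and 146.5 CPM in ESC. Snrpn had 88.9 and 51.0 CPM in iPSC, against 128 and 178 CPM in ESC, and Igf2 had 60.9 and 78.3 CPM in iPSC, against 397.5 and 119.8 CPM in ESC. Plagl1 had 30.6 and 30.8 CPM in iPSC and 208 and 139 CPM in ESC. For these 4 members both iPSC libraries lay below both ESC libraries. The makeup of the same libraries differed too. The rod markers summed to 13561 and 15798 CPM in late iPSC libraries, against 7606 and 5840 CPM in late ESC libraries. The 12 progenitor markers summed to 218.0 and 175.9 CPM in iPSC, against 837.1 and 597.5 CPM in ESC, and the 9 Müller glia markers to 444.3 and 248.3 CPM in iPSC, against 752.9 and 1585 CPM in ESC. The part of these other cells in the differences between sources was not tested.

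Whether the sources differed in their course over days was asked with the product of source and day. None of 26 members and none of 15202 genes (0%) was called, with a smallest adjusted p of 0.499 among the members and 0.351 over all genes in limma. At an unadjusted p under 0.05 there were 2 members, Ndn and Peg10, against 1233 genes (8.11%). The slope per day of Ndn was lower in iPSC than in ESC by -0.11 log2 units (limma adjusted p = 0.499), and that of Peg10 by -0.12 (adjusted p = 0.598). Of the 26 slopes, 21 were negative, against 55.1% of all genes. The number of members with an unadjusted p under 0.05 rested on single libraries. It was 0 without ESC day 35 (all genes 525 of 14999) and 1 without iPSC replicate 1 of day 18 (830 of 15164). It was 6 without ESC day 25 (1640 of 15188) and 5 without ESC replicate 2 of day 18 (1627 of 15054). Without iPSC day 35, ESC replicate 1 of day 18 or ESC replicate 3 of day 21 it was 4. Over all genes those fits gave 958 of 15158, 1732 of 15168 and 1221 of 15187, in that order. The count over all genes thus moved with the library left out as well.

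Between days 28 and 35 and day 18, 4 of 26 members were called, against 2043 of 15202 genes (13.4%), a share near that of all genes. Nnat, Cdkn1c and Grb10 were lower (3 of 26, all genes 5.81%) and Zrsr1 was higher (1 of 26, all genes 7.63%) in the late libraries. Over all genes 1160 calls were higher and 883 lower, while 1025 were higher and 1238 lower with CPM rescaled to the same sum, and 1001 were higher and 1147 lower in DESeq2. The 4 called members kept their direction under each scaling. The median difference of the members was -0.01 (log2), against 0.00 over all genes, and 13 differences were positive and 13 negative. The ranges did not overlap for 7 members, against 9.16% of all genes, namely the 4 called members, Gnas on the lower side, and Mkrn3 and Peg3 on the higher side. Lower were 4 of 26 (all genes 3.91%) and higher 3 of 26 (all genes 5.25%). Nnat and Zrsr1 were called under each of the 28 alternatives run. Leaving out 1 library moved the number of called members to 8 without ESC replicate 2 of day 18, and to 7 without ESC replicate 3 of day 21 or the ESC library of day 35. In these fits the calls over all genes also rose, to 2660, 2189 and 2852, in that order. Over all genes the calls numbered 236 without the iPSC library of day 28, 538 without iPSC replicate 1 of day 18, 677 without the iPSC library of day 35 and 836 without ESC replicate 1 of day 18.

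Nnat had the largest difference of any member. It stood at 36.9 and 8.40 CPM in iPSC and 61.0 and 18.6 CPM in ESC at days 28 and 35, against 395 and 184 CPM in iPSC and 408, 289.6 and 515 CPM in ESC at day 18. Each late library lay below each library of day 18. The difference was -3.71 ± 0.49 (log2, SE; limma adjusted p = 0.00152), and it was lower in both sources. At days 21 and 25 Nnat lay between, with a lowest, median and highest value of 36.8, 92.8 and 224 CPM, and its difference from day 18 was -2.14 with an adjusted p of 0.0546. Nnat lies in an intron of Blcap, whose own late difference was -0.11 (adjusted p = 0.717).

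Grb10, an adaptor that binds the insulin and IGF receptors and restrains growth, stood at 35.2 and 42.4 CPM in iPSC and 19.4 and 23.9 CPM in ESC at days 28 and 35, against 312 and 159 CPM in iPSC and 298, 59.8 and 190.4 CPM in ESC at day 18. The late libraries lay below all libraries of day 18, the nearest of which was replicate 2 of ESC. The difference was -2.57 ± 0.52 (limma adjusted p = 0.0101). The 2 highest libraries were the low-Nrl pair, whose cell cycle markers summed to 1841 CPM in iPSC and 1651 CPM in ESC, against at most 798 CPM in the other libraries of day 18. Without this pair the difference was -2.03 and the adjusted p 0.0965 in limma, so the call rested on it.

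Cdkn1c, which blocks cyclin-dependent kinases as cells leave the cycle, stood at 18.0 and 18.3 CPM in iPSC and 34.1 and 20.9 CPM in ESC at days 28 and 35, against 72.2 and 34.7 CPM in iPSC and 80.3, 107 and 191 CPM in ESC at day 18. The groups did not overlap, but the late ESC library at 34.1 CPM lay just below the iPSC library at 34.7 CPM. The difference was -1.81 ± 0.31 (limma adjusted p = 0.00481). At days 21 and 25 Cdkn1c was still at a median of 92.2 CPM, with a range of 28.6 to 108 CPM, and that range overlapped the late libraries in ESC at day 28 alone.

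Zrsr1, a retrogene that encodes a splicing factor of U12-type introns, was the member that rose. It stood at 37.3 and 59.8 CPM in iPSC and 27.1 and 54.1 CPM in ESC at days 28 and 35, against 11.3 and 14.7 CPM in iPSC and 9.47, 14.6 and 10.5 CPM in ESC at day 18. Days 21 and 25 lay between, at 13.4 to 24.1 CPM, and each late library exceeded each earlier one. The difference from day 18 was 1.73 ± 0.18 (limma adjusted p = 0.000512). Zrsr1 sits in an intron of Commd1 on the opposite strand and shares 412 exonic bases with it, and the strand setting of the quantification is not given in the sources used here. Commd1 itself had a late difference of 0.74 (adjusted p = 0.0504), smaller than that of Zrsr1, and reads of the 2 genes cannot be fully told apart.

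**Figure D3:**
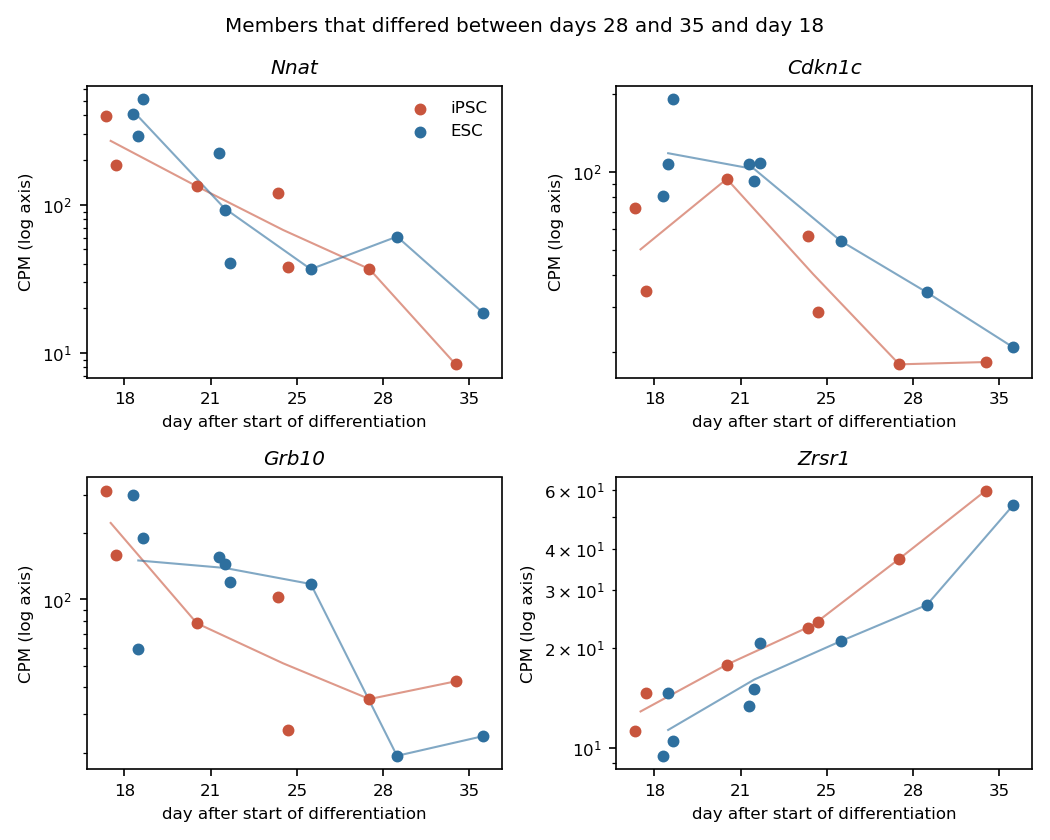
CPM on a log axis of Nnat, Cdkn1c, Grb10 and Zrsr1 in each library by day (days evenly spaced), with iPSC (red) left of ESC (blue) and lines through the group means of log2(CPM + 1). Late libraries of Nnat, Cdkn1c and Grb10 lie below those of day 18, and those of Zrsr1 lie above.

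The promoters of Nnat, Grb10 and Zrsr1 are shown because their levels moved with day, with the windows running 250 bases before to 50 bases after the start in RefSeq (GRCm38.p6). No window of Cdkn1c is shown. Capitals mark the letters GCGGCA, the reverse complement of TGCCGC, the hexamer that ZFP57 binds when it is methylated. The window of Nnat (chr2:157559828-157560127, plus strand) holds 1 match and 17 CpG dinucleotides. The upstream window of Grb10 (chr11:12037371-12037670, minus strand) holds 1 match and 45 CpG, while the downstream window (chr11:12027922-12028221, minus strand) holds 0 matches and 9 CpG. That of Zrsr1 (chr11:22971755-22972054, plus strand) holds 0 matches and 10 CpG.
Nnat promoter: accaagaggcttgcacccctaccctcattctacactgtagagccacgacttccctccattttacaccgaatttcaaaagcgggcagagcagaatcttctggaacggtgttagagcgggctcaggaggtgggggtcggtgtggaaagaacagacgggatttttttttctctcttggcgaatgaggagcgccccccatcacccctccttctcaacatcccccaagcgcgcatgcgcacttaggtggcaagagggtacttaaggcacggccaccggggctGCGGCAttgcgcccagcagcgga
Grb10 upstream promoter: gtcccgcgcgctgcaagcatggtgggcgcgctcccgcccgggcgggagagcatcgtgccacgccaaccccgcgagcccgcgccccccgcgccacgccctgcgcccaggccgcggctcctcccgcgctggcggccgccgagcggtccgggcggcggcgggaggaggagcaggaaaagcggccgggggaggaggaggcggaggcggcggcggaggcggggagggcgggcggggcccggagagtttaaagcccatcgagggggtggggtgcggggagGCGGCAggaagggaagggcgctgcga
Grb10 downstream promoter: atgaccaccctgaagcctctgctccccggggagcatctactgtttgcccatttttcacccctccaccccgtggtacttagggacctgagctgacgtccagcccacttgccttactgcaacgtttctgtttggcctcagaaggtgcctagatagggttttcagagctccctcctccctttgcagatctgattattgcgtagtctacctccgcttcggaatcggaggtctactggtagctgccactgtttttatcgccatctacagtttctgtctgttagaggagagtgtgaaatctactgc
Zrsr1 promoter: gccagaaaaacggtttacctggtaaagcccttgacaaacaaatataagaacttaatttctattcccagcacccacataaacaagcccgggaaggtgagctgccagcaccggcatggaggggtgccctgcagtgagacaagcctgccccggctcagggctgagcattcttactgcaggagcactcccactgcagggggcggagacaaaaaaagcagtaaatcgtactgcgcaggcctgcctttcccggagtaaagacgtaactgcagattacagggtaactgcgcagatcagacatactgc

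Across all 32851 promoter windows of the RefSeq table, 11.6% hold the hexamer TGCCGC on either strand, and the median window has 7 CpG. Of the 37 windows of members in the gene table, 11 (29.7%) hold it, in 10 of the 23 genes with a window, and some windows overlap. The hexamer itself holds a CpG, and member windows were not matched to all windows in CpG content. The shares are therefore not comparable as they stand. A match is a run of letters in the reference and no evidence of binding, and its absence from a window speaks only of that window.

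**Figure D4:**
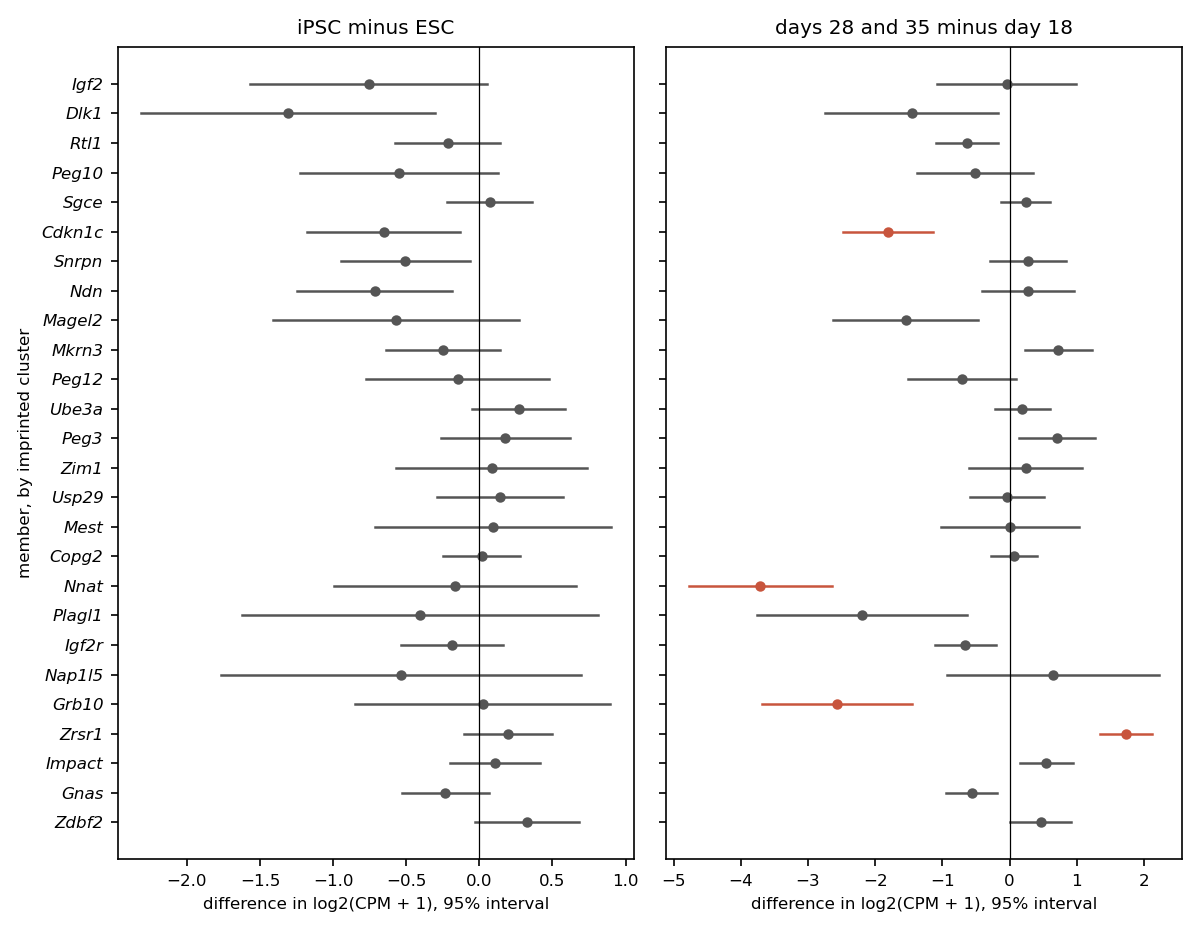
Difference in log2(CPM + 1) with its 95% interval for the 26 tested members, iPSC minus ESC on the left and days 28 and 35 minus day 18 on the right, with called members in red. No member is called on the left, and Cdkn1c, Nnat and Grb10 (lower) and Zrsr1 (higher) are called on the right.

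A further 10 members had an unadjusted p under 0.05 between days 28 and 35 and day 18 but were not called. That makes 14 of 26, against 31% of all genes. Without the iPSC library of day 28 it was 9 of 26, against 3206 of 15134 genes. The adjusted p-values of the 10 members in limma started at 0.0506. Plagl1 had 30.6 and 30.8 CPM in iPSC and 208 and 139 CPM in ESC in the late libraries, against 919 and 197 CPM in iPSC and 833, 141.5 and 231.5 CPM in ESC at day 18, a difference of -2.20 (adjusted p = 0.0598). Its 2 highest libraries were again the low-Nrl pair, and of the late libraries only that of ESC at day 28 overlapped day 18. Magel2 differed by -1.55 (adjusted p = 0.0568) and Dlk1 by -1.45 (adjusted p = 0.117). Igf2r, the receptor that clears IGF2 from the cell surface, differed by -0.66 (adjusted p = 0.0529) and Gnas by -0.56 (adjusted p = 0.0506). On the positive side were Mkrn3 at 0.73 (adjusted p = 0.0548), Peg3 at 0.70 (adjusted p = 0.0891) and Impact, a regulator of translation, at 0.55 (adjusted p = 0.061). Within the Snrpn cluster the members thus had differences of both signs, with 4 positive and 2 negative. Igf2 itself differed by -0.05 (interval -1.08 to 0.99).

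Between days 28 and 35 and days 21 and 25, 2 of 26 members were called, against 223 of 15202 genes (1.47%). Cdkn1c was lower (-1.53 ± 0.29, limma adjusted p = 0.0241; all genes lower 0.776%) and Zrsr1 was higher (1.09 ± 0.17, adjusted p = 0.0104; all genes higher 0.691%). Zrsr1 was the 1 member whose ranges did not overlap (all genes 3.07%, higher 1.09%). Both calls were lost without the iPSC library of day 28, where 0 members and 10 genes were called and the adjusted p in limma was 0.158 for Cdkn1c and 0.0964 for Zrsr1. The call of Cdkn1c was also lost without iPSC day 21, iPSC replicate 1 of day 25, or the ESC library of day 25, 28 or 35, with adjusted p-values up to 0.0735 in limma. Over all genes the calls numbered 81 without iPSC day 21, 58 without iPSC replicate 1 of day 25, 410 without iPSC day 35, 366 without ESC replicate 2 of day 18, 90 without ESC replicate 2 of day 21, 49 without ESC day 25 and 134 without ESC day 28. The fits share the late libraries with the comparison against day 18, so the 2 sets of values are not independent.

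Between days 21 and 25 and day 18, 0 of 26 members were called, against 18 of 15202 genes (0.118%). At an unadjusted p under 0.05 there were 9 of 26 members, against 29.2% of all genes, with a smallest adjusted p of 0.0546 for Nnat in limma. Without iPSC replicate 1 of day 18 there were 4 such members of 26, against 2496 of 15164 genes. The ranges overlapped for all 26 members (1.08% of all genes did not overlap). Members called numbered 4 without iPSC replicate 1 of day 25, 3 without iPSC replicate 2 of day 18, ESC replicate 2 of day 18, ESC replicate 1 of day 21 or the ESC library of day 35, and 1 without the iPSC library of day 35. They were Nnat in all 6 cases, with Mest, Zrsr1, Peg3 or Peg12 beside it in 5. Over all genes the calls numbered 0 or 1 without any of the other 10 libraries, and 165 to 1790 without these 6. Mest had a low middle. It stood at 72.7 and 111 CPM in iPSC and 52.6 and 192 CPM in ESC at days 28 and 35, against 150 and 54.5 CPM in iPSC and 130, 136 and 50.6 CPM in ESC at day 18, with 11.1 to 60.2 CPM at days 21 and 25. The difference from day 18 was -1.79 at days 21 and 25 (adjusted p = 0.0568), and that between the late days and days 21 and 25 was 1.80 (adjusted p = 0.0649), so neither passed. Mest and Copg2 share 912 exonic bases on opposite strands.

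Several members start from alternative promoters, which the deposited TPM of single transcripts separates. No test was run on these estimates, which rest on reads that differ between transcripts. For Grb10, 57.0% of the TPM over libraries came from 1 transcript with an upstream start (chromosome 11, position 12037401 of GRCm38) and 35.6% from 1 with a downstream start (position 12027971). At days 28 and 35 the upstream start had 15.4 and 8.36 TPM in iPSC and 5.50 and 7.21 TPM in ESC, against 78.5 and 39.2 TPM in iPSC and 96.2, 11.7 and 50.1 TPM in ESC at day 18. The downstream start was listed at 0 TPM in iPSC at day 28 and had 7.44 TPM in iPSC at day 35 and 1.56 and 4.97 TPM in ESC at days 28 and 35, against 70.7 and 30.5 TPM in iPSC and 51.0, 16.99 and 41.7 TPM in ESC at day 18. Late and day 18 values overlapped for the upstream start and did not overlap for the downstream start. The share of the downstream start ran between 0% and 53.5% over libraries without an order by day or source.

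**Figure D5:**
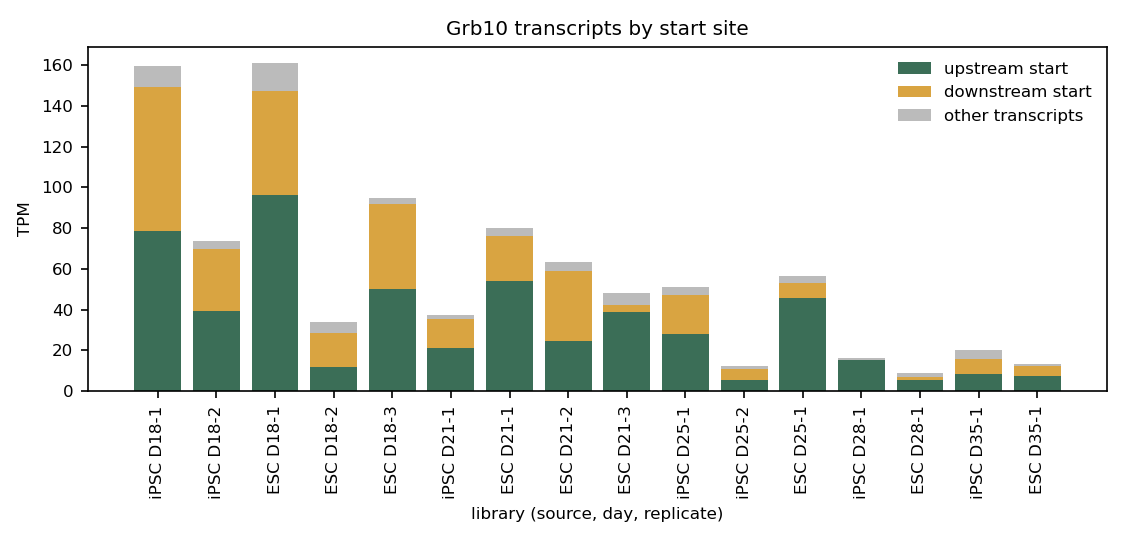
Stacked TPM of Grb10 transcripts by start site (upstream, downstream and all other transcripts) in each of the 16 libraries, ordered by day with iPSC left of ESC within a day. The total is highest in the low-Nrl pair at day 18, and each late library lies below each library of day 18.

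Gnas reads came almost wholly from the start of the Gs-alpha transcript, which is active on both copies in most tissues, with 94.4% of the TPM over libraries and a range of 87.1% to 97.03%. The start of Nesp, which is active on the maternal copy, held 2.39% and the exon 1A start on the paternal copy 1.08%, while the XL start held 0.011%. In Plagl1, 82.8% came from transcripts at the imprinted promoter and 0.0405% from the upstream start. In Igf2, 56.5% came from promoter P3, 7.46% from P2 and 34.9% (3.597% to 61.14% over libraries) from transcripts with none of the listed starts, mostly a processed transcript, and the placental promoter P0 was listed at 0 TPM in each library. In Snrpn, 95.8% came from the main start.

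Of 44 imprinted genes outside the list of members, 41 were in the gene table and 27 were tested, and none was called between iPSC and ESC. Between days 28 and 35 and day 18, 2 of 27 were called, both higher (all genes called 13.4%, higher 7.63%), with a list median of -0.11 (log2). Herc3, the host gene of Nap1l5, rose by 2.48 ± 0.37 (limma adjusted p = 0.00252), and Trappc9, a subunit of a vesicle tethering complex, by 1.15 ± 0.32 (adjusted p = 0.0339). Herc3 had 235 and 304 CPM in iPSC and 89.6 and 193 CPM in ESC at days 28 and 35, against 30.5 and 51.1 CPM in iPSC and 32.0, 39.7 and 16.8 CPM in ESC at day 18. Each late library exceeded each library of day 18, while Nap1l5 inside it did so in 1 library. Without the low-Nrl pair 1 of these genes was called, Herc3. The call of Trappc9 was also lost without the iPSC library of day 28 or 35, iPSC replicate 1 of day 18, the ESC library of day 28 or ESC replicate 1 of day 18, with adjusted p-values up to 0.146 in limma.

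Of 20 genes that keep or erase imprints, 18 were tested and none was called between sources. At days 28 and 35 against day 18, 4 were called (all genes 13.4%). Of these, 1 rose (all genes higher 7.63%) and 3 fell (all genes lower 5.81%). Zfp57, which protects methylated imprints, had 7.29 and 4.73 CPM in iPSC and 41.2 and 47.0 CPM in ESC at days 28 and 35, against 125 and 45.1 CPM in iPSC and 115, 64.0 and 84.9 CPM in ESC at day 18. The ESC library of day 35 overlapped the lower end of day 18, and the other 3 late libraries lay below it. The difference was -2.15 ± 0.55 (limma adjusted p = 0.0245). Zfp445, a second zinc finger protein of imprints, rose by 1.11 ± 0.32 (adjusted p = 0.037). Uhrf1, which brings the maintenance methyltransferase to replicated DNA, fell by 2.66 (adjusted p = 0.0193) and Hells, a chromatin remodeller, fell by 1.83 (adjusted p = 0.0459). Uhrf1 and Hells are also expressed with DNA replication, and 10 of the 12 cell cycle markers were called lower over the same days (all genes lower 5.81%). Without the low-Nrl pair, in which Uhrf1 stood at 103 CPM in iPSC and 117 CPM in ESC, 0 of the 18 genes were called. Leaving out the iPSC library of day 28, that of day 35 or iPSC replicate 1 of day 18 ended all 4 calls, with adjusted p-values up to 0.217 in limma. The calls of Zfp57, Zfp445 and Hells were also lost without ESC replicate 1 of day 18 and those of Zfp445 and Hells without ESC replicate 2 of day 21. That of Zfp445 was further lost without ESC replicate 3 of day 18 or the ESC library of day 28 or 35, and that of Hells without ESC day 25, iPSC day 21 or iPSC replicate 2 of day 25. The part of dividing cells in these differences was not tested.

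Around Igf2 and Grb10, 14 of 16 genes of the IGF pathway were tested and 4 fell at days 28 and 35 against day 18 (all genes lower 5.81%), with a list median of -0.83 and no call between sources. Igf2bp1, Igf2bp2 and Igf2bp3, which bind the mRNA of Igf2 and other transcripts, fell by 2.69, 0.93 and 1.13 (limma adjusted p = 0.00196, 0.00826 and 0.0156), and the carrier protein Igfbp2 fell by 1.08 (adjusted p = 0.0305). All 3 Igf2bp genes were also called lower in the late libraries than at days 21 and 25 (3 of 14, all genes lower 0.776%). Igf2bp1 had 5.70 and 2.92 CPM in iPSC and 26.7 and 5.26 CPM in ESC at days 28 and 35, against 76.6 and 44.9 CPM in iPSC and 84.3, 31.0 and 48.5 CPM in ESC at day 18. Each late library lay below each library of day 18. Without the low-Nrl pair 1 of the 14 genes was called, Igf2bp1. Against day 18 the calls of Igf2bp2, Igf2bp3 and Igfbp2 were lost without the iPSC library of day 28, those of Igf2bp3 and Igfbp2 without iPSC replicate 1 of day 18, and that of Igfbp2 without iPSC day 35, ESC day 28 or ESC replicate 3 of day 18 (limma adjusted p up to 0.131). Against days 21 and 25 all 3 Igf2bp calls were lost without iPSC day 28, those of Igf2bp2 and Igf2bp3 without ESC day 25 and that of Igf2bp2 without ESC day 35 (limma adjusted p up to 0.129).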

How the data were processed

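Poly(A) RNA libraries of 16 sorted samples were analysed, grouped by source and day from the labels. Per the design text of the series, the authors trimmed reads with Trimmomatic 0.36, quantified them with kallisto 0.42.5 against Ensembl cDNA, summed them to genes with tximport (length-scaled TPM) and took CPM from edgeR. The gene table, deposited by the authors, holds a score that equals the square of log2(CPM + 1) minus 1, and CPM was restored from it. The authors also deposited estimated counts and TPM for 65535 transcripts, of which 99.3% matched GENCODE M21. Gene sums of counts and TPM were used for the 11069 genes whose transcripts were all held, checked by a constant ratio of CPM to TPM (97.7% of 8688 genes within 0.0001 on the log2 scale). Coordinates are those of GRCm38, the build in the submitters' processing notes. CPM is relative to the library total, so a change in abundant transcripts shifts the CPM of all others.

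The members and gene lists were chosen with earlier results of these data known, and all members are named whatever their test; of each other list up to 4 called genes by size of change are named, and Nrl and the Y-linked genes check the libraries. Other genes named beside them (Ttr, Commd1, Blcap) were chosen after their values were seen. The main test was limma 3.58.1 with trend on log2(CPM + 1) for 15202 genes, with source and day as terms and all 16 libraries sharing 1 estimate of the spread, Benjamini-Hochberg adjustment and a threshold of 0.05. A difference on this scale understates the change of genes at low CPM. Day comparisons share libraries with each other. Alternatives were a pseudocount of 0.1, no filter, a filter of 8 libraries, rescaled CPM, TMM factors, edgeR 4.0.16 and DESeq2 1.42.0 on rounded gene sums of estimated counts (9314 genes), the replicate number as a block, each library left out, and pairs of libraries left out. The fits were tested on simulated counts with known changes, drawn with 1 spread for all genes and no libraries that stand apart. That run therefore does not cover libraries such as the low-Nrl pair. In R 4.3.3 and Python 3.11.15, tables and figures were made with pandas 2.3.3 and matplotlib 3.10.9.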

Additional observations from a re-analysis of the deposited data

Results flagged for a closer look

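In each of the 26 tested members, the highest and lowest library of day 18, of days 21 and 25 and of days 28 and 35 were set against the others of their group, 78 gene and group pairs in all, and chance would mark about 1 in 20 of them. A single library stood far from the others in 2 cases, both in iPSC replicate 2 of day 25. Dlk1 was at 3.67 CPM there, while the other 6 libraries of days 21 and 25 lay between 29.6 and 112 CPM. Grb10 was at 25.4 CPM there, while the other 6 lay between 77.9 and 155 CPM. The same library had 461.7 CPM of Peg3 and 239 CPM of Zdbf2, the highest values of these genes in any library, which were looked up after the values were seen.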

How the results depend on the processing

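No called member changed sign under the 28 alternatives. Against day 18, Nnat (-4.24 to -3.46) and Zrsr1 (1.59 to 1.88) were called at days 28 and 35 in all 28, Cdkn1c in 27 and Grb10 in 26; the call of Cdkn1c was lost without the low-Nrl and high-Ttr pairs (adjusted p = 0.104 in limma). The high-Ttr pair (ESC replicate 2 of day 18 and ESC day 35) was chosen after seeing the data.

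Between days 28 and 35 and day 18, calls over all genes numbered 1211 without a filter, 1099 in edgeR, 192 without the low-Nrl pair, 1086 without the Y-linked pair (iPSC replicate 2 and ESC replicate 1 of day 18), 3422 without the high-Ttr pair and 145 without the low-Nrl and high-Ttr pairs. Members called were 7 with the stricter filter (2046 of 13569 genes), 9 in DESeq2 (2148 of 9314 genes) and 7 without the high-Ttr pair. Leaving out 1 library gave 236 to 2852 genes and 4 to 8 members.

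Between days 28 and 35 and days 21 and 25, calls numbered 148 without a filter, 90 in edgeR, 602 in DESeq2, 111 without the Y-linked pair and 95 without both other pairs. Members were 5 in DESeq2, 1 without the high-Ttr pair (270 genes) and 0 without both other pairs. Leaving out 1 library gave 10 to 410 genes and 0 to 3 members.

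Between days 21 and 25 and day 18, calls numbered 1 without a filter, 92 with the stricter filter, 91 with rescaled CPM, 102 with TMM, 0 in edgeR, 1590 in DESeq2, 0 without the low-Nrl pair, 315 without the Y-linked pair, 1039 without the high-Ttr pair and 0 without both other pairs. Members were 1 with the stricter filter, TMM or without the Y-linked pair, 5 in DESeq2 and 4 without the high-Ttr pair. Leaving out 1 library gave 0 to 1790 genes and 0 to 4 members. Between iPSC and ESC, a pseudocount of 0.1 gave 1 gene, and removal of the Y-linked pair gave 3. The slope had 43 calls in DESeq2. No member was called for source or slope under any alternative.

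Replicate numbers were not taken to pair the samples. As deviations from their group means, same-numbered ESC libraries of days 18 and 21 correlated at 0.314, 0.0592 and 0.249. ESC replicate 2 of day 18 correlated best with replicate 3 of day 21 (0.123). Same-numbered iPSC libraries of days 18 and 25 correlated at 0.381 and the crossed ones at -0.381. With 2 libraries in each of these iPSC groups the crossed values must mirror the others, so they add no separate evidence. With the replicate block, 4146, 399 and 3066 genes and 10, 4 and 4 members were called, in the order of the day comparisons above, against 2043, 223 and 18 genes and 4, 2 and 0 members without it. With rescaled CPM the median of all genes was -0.127 for days 28 and 35 against day 18, where it was 0.004 in the main fit. For days 21 and 25 against day 18 it was -0.119, where it was 0.01 in the main fit. The causes of these shifts were not tested. Single libraries at days 28 and 35 and low depth limit what genes near 1 CPM can show.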
